A study of Mus musculus with 8 samples.

Results

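Complex I, NADH:ubiquinone oxidoreductase, is the entry point of the mitochondrial respiratory chain. It takes electrons from NADH at the tip of an arm in the matrix, passes them along iron-sulfur clusters to ubiquinone, and couples this to proton pumping in the membrane arm. Its subunits come from both genomes: the ND subunits of the membrane arm are read from mitochondrial DNA, and the rest are nuclear genes whose symbols begin with Nduf, as do those of several assembly factors. In spermatozoa the mitochondria are packed in the midpiece, and mature sperm make next to no new RNA, so transcripts found there date from spermatogenesis or reach sperm during passage through the epididymis.

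The genes described here are all those whose symbol begins with Nduf in the exon part of the deposited count table, with their exon rows summed per gene. There were 45 such genes, with 248 exon rows, among 19213 mRNA exon features and 45097 features in all. By their known roles 3 are core subunits of the NADH-oxidising (N) module and 4 of the ubiquinone-binding (Q) module. Another 9 are accessory subunits of the matrix arm, 9 of the proximal and 10 of the distal membrane arm, and 1 is the acyl carrier protein. The remaining 7 are assembly factors and 2 carry the name only. Ndufb1 and Ndufaf8 were not analysed here, since no exon row bore those symbols.

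The study sequenced small RNA from mouse sperm in a control and an ethanol group, in a series on what persists in sperm after alcohol exposure has ended. Each group has 4 libraries; RNA was taken up in Trizol and the libraries were built with a Qiaseq kit. Strain, age, dose, length of exposure and the way sperm were collected are not given in the sources used here. Whether each library is a separate animal is not stated either, so the p-values reflect the spread between these libraries alone, which may be technical. Because the libraries hold small RNA, a count on an exon is a short fragment of that transcript and not a whole mRNA. In such bulk material fewer cells of a type and less RNA per cell cannot be told apart.

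Library totals ran from 3481865 to 6975180 counts, and 370 to 3383 counts per library fell on the Nduf exons. Ethanol replicate 2 stood apart from the other libraries: mRNA exons took 29.3% of its counts, against 6.94% to 9.72% in the other ethanol libraries and 5.08% to 5.81% in controls. The summed level of 23 markers of epididymal epithelium was 14932 CPM (the usual per-library rate, counts relative to a library size scaled by the TMM method) in that library, 1013 to 3015 CPM in the other ethanol libraries and 462 to 888 CPM in controls. Results are therefore given with and without ethanol replicate 2.

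In ethanol sperm, fragments of the nuclear complex I transcripts were more abundant across nearly the whole gene family. The mean CPM was higher in ethanol than in control libraries for 43 of the 45 genes. The exceptions were Ndufv2, a core subunit gene whose control level rested on 1 exon row, and the assembly factor gene Ndufaf5, at 0.00 to 0.55 CPM in every library. Without ethanol replicate 2 the ethanol mean was higher for 42 genes. Over all 45 genes the median ratio of ethanol to control means was 3.93, and 2.34 without ethanol replicate 2. On the log2 scale the ratio of means had a median of 1.98 over the 45 genes, beside 0.57 over the 17114 mRNA exon features with a count in a control.

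Leaving aside the largest row of Ndufv2, described below, the 45 genes summed to 65.3, 82.4, 88.4 and 98.5 CPM in control replicates 1 to 4. The sums in ethanol replicates 1 to 4 were 202, 696, 151 and 215 CPM. All ethanol libraries lay above all controls, and ethanol replicate 2 lay far above the rest. The ratio of means was 3.78, and 2.27 without ethanol replicate 2. All mRNA exons together also had a higher level, with a ratio of means of 1.87, or 1.41 without that library. As a share of mRNA exon counts the 45 genes took 0.111% to 0.144% in controls and 0.170% to 0.332% in ethanol libraries, again without overlap. With the Ndufv2 row left in, that share was 0.188% ± 0.0563 in control and 0.240% ± 0.0677 in ethanol libraries (SD, n = 4 each). This difference was smaller than the spread in either group. The summed level with that row was 154, 129, 93.0 and 101 CPM in control replicates 1 to 4. In ethanol replicates 1 to 4 it was 202, 696, 151 and 216 CPM, so the groups overlapped. The ratio of means was then 2.65, and 1.59 without ethanol replicate 2.

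**Figure D1:**
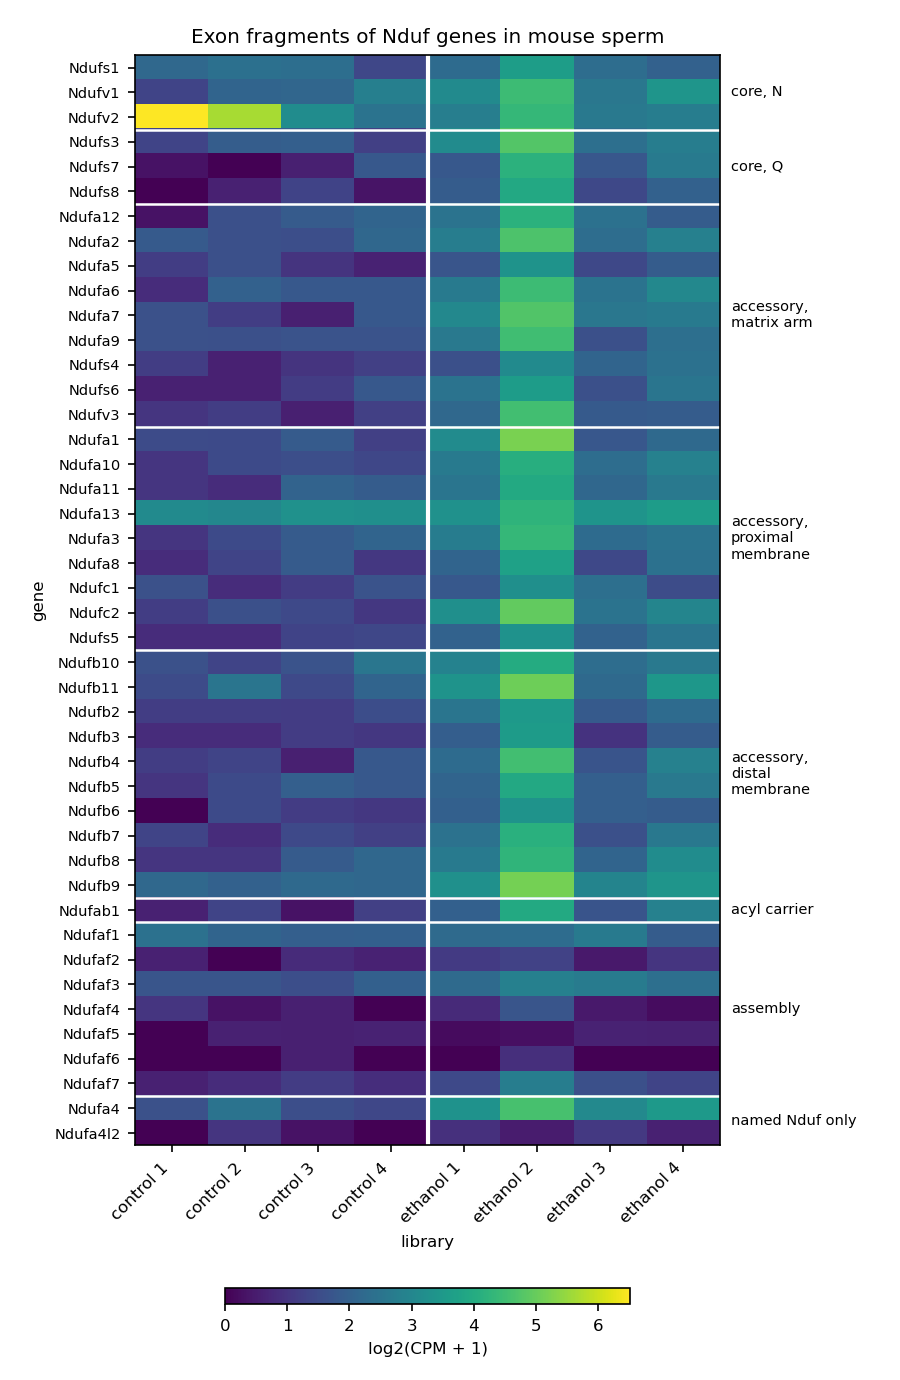
Level of the Nduf genes reported by name (rows, grouped by role) in the 8 libraries (columns), as log2(CPM + 1) by colour. The column of ethanol replicate 2 is the brightest in most rows, the other ethanol columns are mostly brighter than the control columns, and Ndufv2 in control replicates 1 and 2 is the exception.

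The test asked which of these genes differed between the groups beyond the spread of the libraries. Of the 45 genes 26 had enough counts to be tested, 17 rose, 0 fell and 9 did not pass (edgeR quasi-likelihood test, Benjamini-Hochberg adjustment over all 13515 features, adjusted p under 0.05). At this threshold 11.9% of all features and 23.8% of the 6542 mRNA exon features rose, while 1.75% and 0.153% fell. Only 4 of the 26 reached the count filter in all 4 controls. The other 22 entered with the help of the ethanol libraries. The share of tested genes that rose is thus no measure of the family, nor of the role groups described below. The shares of all features and of mRNA exon features just given stand beside the counts by role as well. With no filter all 45 could be tested, and 33 then rose and 1, Ndufv2, fell, beside 15.1% of the 19213 mRNA exon features that rose and 0.245% that fell. The 17 had log2 fold changes of 1.59 to 3.0 and adjusted p of 0.0287 to 0.0468. At an unadjusted p under 0.05 the number of lower genes was 1, again Ndufv2, and DESeq2 and limma-voom called 0 lower.

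Those calls depended on the libraries. Without ethanol replicate 2, 12 of 29 tested genes rose, beside 14.0% of mRNA exon features and 6.89% of all features, and the median log2 fold change went from 1.96 to 1.19. Of the 17 genes 10 were called in both fits and 7 only with that library. Ndufb2 and Ndufs4, accessory subunit genes with too few counts in the fit of all libraries, were the others called without it, and were named after their values were seen. Without control replicate 1, 2, 3 or 4 in turn, 0 of 39 tested genes passed, with an edgeR adjusted p of 0.0615 to 0.166 for the 17, while 34 or 35 had an unadjusted p under 0.05. The whole table behaved alike: 3 to 10 of its features passed without a control, against 1841 with all libraries. limma-voom called 0 of 26, with 21 at an unadjusted p under 0.05, and called 8 features in the whole table. The DESeq2 Wald test called 21 of the 26 genes, and 3144 features in the whole table. When mRNA exons alone were fitted, the genes were compared with other mRNA exons. There 31 of 35 still had a positive log2 fold change, with a median of 0.99. Of the 35 genes 0 passed (21 at an unadjusted p under 0.05), and of all 6962 mRNA exon features tested 0 passed as well.

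All 4 ethanol libraries lay above all 4 controls for 22 of the 45 genes, beside 13.7% of the mRNA exon features. The ethanol libraries other than replicate 2 lay above all controls for 22 genes as well, beside 14.2%. Ethanol replicate 2 was the highest ethanol library for 42 of the 45 genes. All mRNA exons together were highest there as well, at 209800 CPM beside 85440 to 97817 CPM in the other ethanol libraries.

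**Figure D2:**
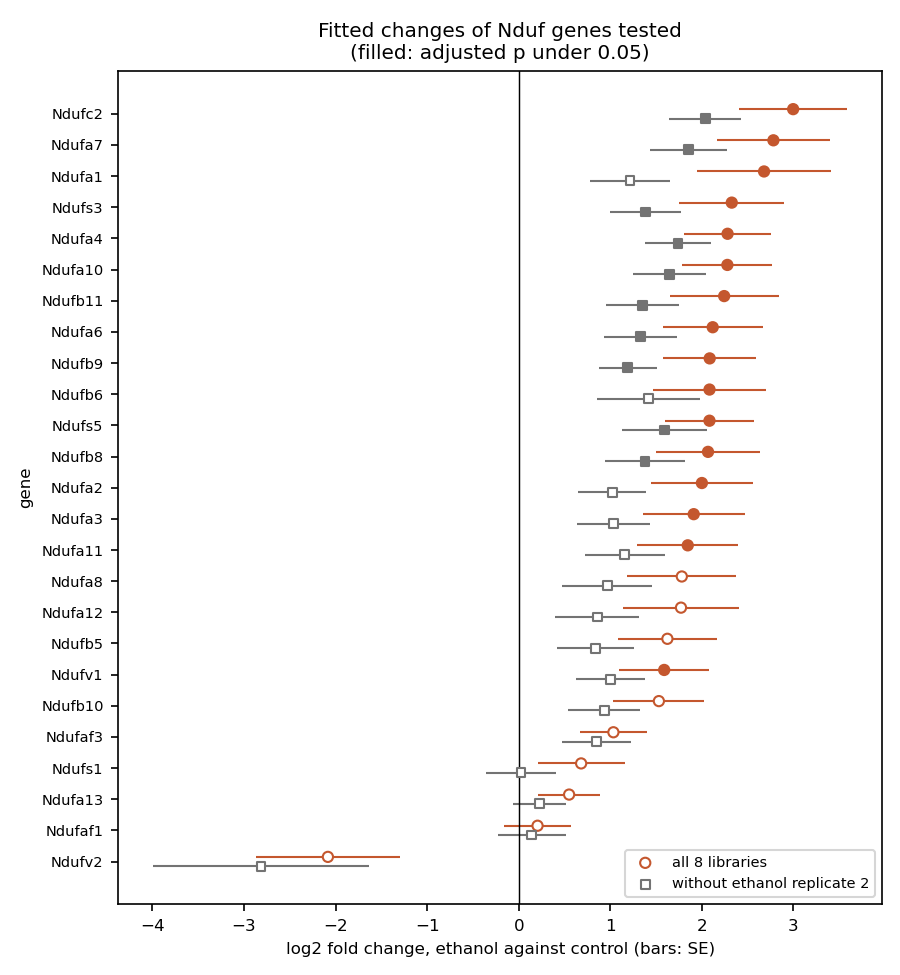
Fitted log2 fold change of ethanol against control (horizontal axis, bars are SE) for the tested Nduf genes reported by name, from all 8 libraries (circles) and without ethanol replicate 2 (squares), filled where the edgeR adjusted p was under 0.05. Circles reach from -2.08 for Ndufv2 to 3.0 for Ndufc2, and most squares lie closer to 0 than their circles.

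Promoters were read for those of the genes held in the RefSeq promoter table (GRCm38.p6), from 250 bases before to 50 after the annotated start. It held 41 promoters of 39 of the genes. Nuclear respiratory chain genes are textbook targets of the factors NRF1, GABP (of the ETS family), YY1 and ESRRA, and a motif of each was searched on both strands. The NRF1 motif, GCGCN followed directly by TGCGC, was in 10 of the 41 promoters (24.4%), beside 4.60% of all 32851 promoters in the table. The YY1 motif AAGATGG was in 7 (17.1%, beside 6.34%), the ETS motif CCGGAAG in 5 (12.2%, beside 8.86%) and the ESRRA motif TCAAGGTCA in 0 (beside 0.423%). These promoters were also richer in GC than the others: the median GC content was 59.3%, beside 52.7% in all, with a median of 20 CpG sites beside 7. A match is a description of letters in this window and not a bound site. Of the 17 genes that rose 14 had a promoter in the table, and 3 of these held the NRF1, 2 the YY1 and 2 the ETS motif.

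The 150 bases before the start are shown for 3 genes that rose and hold a motif, with the motif in capitals, 5′ to 3′ along the gene. Ndufs5 lies on the minus strand (chr4:123718187-123718336), Ndufa11 on the plus strand (chr17:56717612-56717761) and Ndufs3 on the minus strand (chr2:90904722-90904871) of GRCm38.p6. The first and second hold the NRF1 motif, with 88 and 50 bases between it and the start, and the third holds the ETS motif with 20 bases between.
Ndufs5: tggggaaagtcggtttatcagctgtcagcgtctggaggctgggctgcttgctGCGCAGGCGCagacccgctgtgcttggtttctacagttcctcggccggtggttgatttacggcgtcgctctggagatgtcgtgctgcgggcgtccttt
Ndufa11: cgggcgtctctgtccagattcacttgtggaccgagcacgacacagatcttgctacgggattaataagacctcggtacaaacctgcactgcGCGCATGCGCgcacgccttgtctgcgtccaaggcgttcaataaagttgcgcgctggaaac
Ndufs3: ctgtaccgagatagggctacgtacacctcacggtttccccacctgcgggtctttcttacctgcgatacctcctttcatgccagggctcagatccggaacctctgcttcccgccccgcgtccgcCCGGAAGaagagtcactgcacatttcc

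Among the core subunits of the N module, which oxidises NADH, 1 of 3 rose. Ndufv1, whose product binds NADH and the flavin that first takes its electrons, was at 1.54, 3.29, 3.42 and 5.98 CPM in control replicates 1 to 4 and at 7.61, 21.0, 4.97 and 9.47 CPM in ethanol replicates 1 to 4. Ethanol replicate 3 lay below control replicate 4, so the groups overlapped. Its log2 fold change was 1.59 ± 0.49 (SE; edgeR adjusted p = 0.0468), and 1.0 without ethanol replicate 2 (edgeR adjusted p = 0.0867). Ndufs1, the largest subunit, which carries iron-sulfur clusters, was at 3.58, 4.30, 4.15 and 1.63 CPM in controls and at 3.88, 11.3, 4.05 and 3.04 CPM in ethanol libraries. Apart from ethanol replicate 2 its ethanol values lay within the control range, and it did not pass (0.68 ± 0.47, edgeR adjusted p = 0.320).

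Ndufv2, the third core subunit of this module, went against the rest. It was at 90.4, 49.6, 8.05 and 4.62 CPM in controls and at 5.89, 19.3, 5.16 and 5.75 CPM in ethanol libraries. The high values were those of control replicates 1 and 2, and the groups overlapped (log2 fold change -2.08 ± 0.79, edgeR adjusted p = 0.0872). A single exon row held most control counts: 346, 184, 19 and 8 in controls against 0, 0, 0 and 1 in ethanol libraries. This is exon 7 as the table numbers it, the second exon from the 5′ end, listed for a single transcript isoform. Its counts thus differed widely between control libraries and were near 0 in every ethanol library. The other Ndufv2 rows together had 7, 12, 14 and 9 counts in controls and 41, 94, 28 and 33 in ethanol libraries, and on that sum Ndufv2 rose without overlap of the groups (1.73 ± 0.49, edgeR adjusted p = 0.0348). The separation of this row was chosen after its values were seen.

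Ndufs3, a core subunit of the Q module, which hands electrons to ubiquinone, rose. It was at 1.54, 2.78, 2.93 and 1.36 CPM in controls and at 7.76, 26.3, 4.24 and 5.75 CPM in ethanol libraries. The groups did not overlap, and ethanol replicate 2 was far above the others (2.33 ± 0.57, edgeR adjusted p = 0.0287; 1.38 without ethanol replicate 2, edgeR adjusted p = 0.0254).

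Ndufs7 and Ndufs8, also core subunits of this module, carry the last iron-sulfur clusters before ubiquinone and had too few counts to be tested. Ndufs7 was at 0.26, 0.00, 0.49 and 2.45 CPM in controls and at 2.44, 17.1, 2.40 and 5.41 CPM in ethanol libraries. Ndufs8 was at 0.00, 0.51, 1.46 and 0.27 CPM in controls and at 2.73, 14.2, 1.66 and 3.04 CPM in ethanol libraries. Every ethanol library was above every control for Ndufs8, while for Ndufs7 control replicate 4 reached the lowest ethanol libraries. Their ratios of means, 8.56 and 9.64, were the highest of the 45 genes, on few control counts.

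Of the 9 accessory subunits of the matrix arm, which surround the core and stabilise it, 4 were tested and 3 rose. Ndufa7 was at 2.05, 1.26, 0.49 and 2.45 CPM in controls and at 7.18, 25.9, 4.97 and 5.41 CPM in ethanol libraries (2.78 ± 0.62, edgeR adjusted p = 0.0287). Ndufa6, a small LYR-motif protein that docks the acyl carrier protein, was at 0.77, 3.03, 2.44 and 2.45 CPM in controls and at 5.31, 21.2, 4.61 and 7.27 CPM in ethanol libraries (2.12 ± 0.55, edgeR adjusted p = 0.0301). Both had ethanol libraries that lay wholly above the controls, and both were also called without ethanol replicate 2. Ndufa2, a protein with a thioredoxin-like fold, was at 2.56, 2.02, 1.95 and 3.54 CPM in controls and at 5.75, 24.9, 4.05 and 6.09 CPM in ethanol libraries (2.0 ± 0.56, edgeR adjusted p = 0.0345). Its groups did not overlap, but its call was lost without ethanol replicate 2 (1.02, edgeR adjusted p = 0.0772). Ndufa12 did not pass (1.77 ± 0.63, edgeR adjusted p = 0.0718). The untested Ndufa5, Ndufa9, Ndufs4, Ndufs6 and Ndufv3 had ratios of means of 3.30, 3.94, 4.21, 4.79 and 7.56.

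The proximal membrane arm gave the smallest p of the family. Of its 9 accessory subunits 8 were tested and 6 rose. Ndufc2 was at 1.28, 2.02, 1.71 and 1.09 CPM in controls and at 8.47, 30.03, 4.61 and 6.76 CPM in ethanol libraries. The lowest ethanol library was above the highest control (3.0 ± 0.59, edgeR adjusted p = 0.0287; 2.04 without ethanol replicate 2, edgeR adjusted p = 0.00413). Ndufa10, a member of the nucleoside kinase family, was at 1.02, 1.77, 1.95 and 1.63 CPM in controls and at 5.46, 15.8, 4.05 and 6.26 CPM in ethanol libraries (2.28 ± 0.49, edgeR adjusted p = 0.0287). Ndufs5, a disulfide-bonded protein facing the intermembrane space, was at 0.77, 0.76, 1.46 and 1.63 CPM in controls and at 3.16, 9.05, 3.13 and 4.74 CPM in ethanol libraries (2.08 ± 0.48, edgeR adjusted p = 0.0287). For both genes the groups did not overlap and the call held without ethanol replicate 2.

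Ndufa1, a small X-linked membrane subunit, was at 1.79, 1.77, 2.69 and 1.36 CPM in controls and at 7.76, 36.0, 2.40 and 3.72 CPM in ethanol libraries. Ethanol replicate 3 fell within the control range (2.68 ± 0.73, edgeR adjusted p = 0.0328), and without ethanol replicate 2 the call was lost (1.21, edgeR adjusted p = 0.0726). Ndufa3 (1.91 ± 0.56) and Ndufa11 (1.85 ± 0.55) rose too, but both calls were lost without ethanol replicate 2 (1.04 and 1.16, edgeR adjusted p = 0.0956 and 0.0877), and Ndufa8 did not pass (1.78 ± 0.59, edgeR adjusted p = 0.0573). The untested Ndufc1 had a ratio of means of 2.74.

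Ndufa13, also called GRIM-19, did not pass. It had the highest control level per kb of transcript among the proximal subunits (6.39 CPM per kb). It was at 7.68, 7.08, 8.79 and 8.43 CPM in controls and at 8.76, 17.7, 9.39 and 11.2 CPM in ethanol libraries. Ethanol replicate 1 lay just below the highest control (0.55 ± 0.34, edgeR adjusted p = 0.264). Its 5′-most row had 20, 16, 22 and 20 counts in controls and 16, 6, 20 and 19 in ethanol libraries, whereas its other rows together had 10, 12, 14 and 11 against 45, 80, 31 and 47. In GENCODE M21, 375 of the 678 bases of that exon overlap Tssk6, a sperm kinase gene on the other strand. Strand use in the counting is unstated, so reads of either gene cannot be told apart there. Tssk6 itself did not pass (-0.48, edgeR adjusted p = 0.436). With the overlapping row apart, a separation chosen after its values were seen, Ndufa13 rose (1.59 ± 0.41, edgeR adjusted p = 0.0298) while the row itself did not pass (-0.92 ± 0.39, edgeR adjusted p = 0.113).

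**Figure D3:**
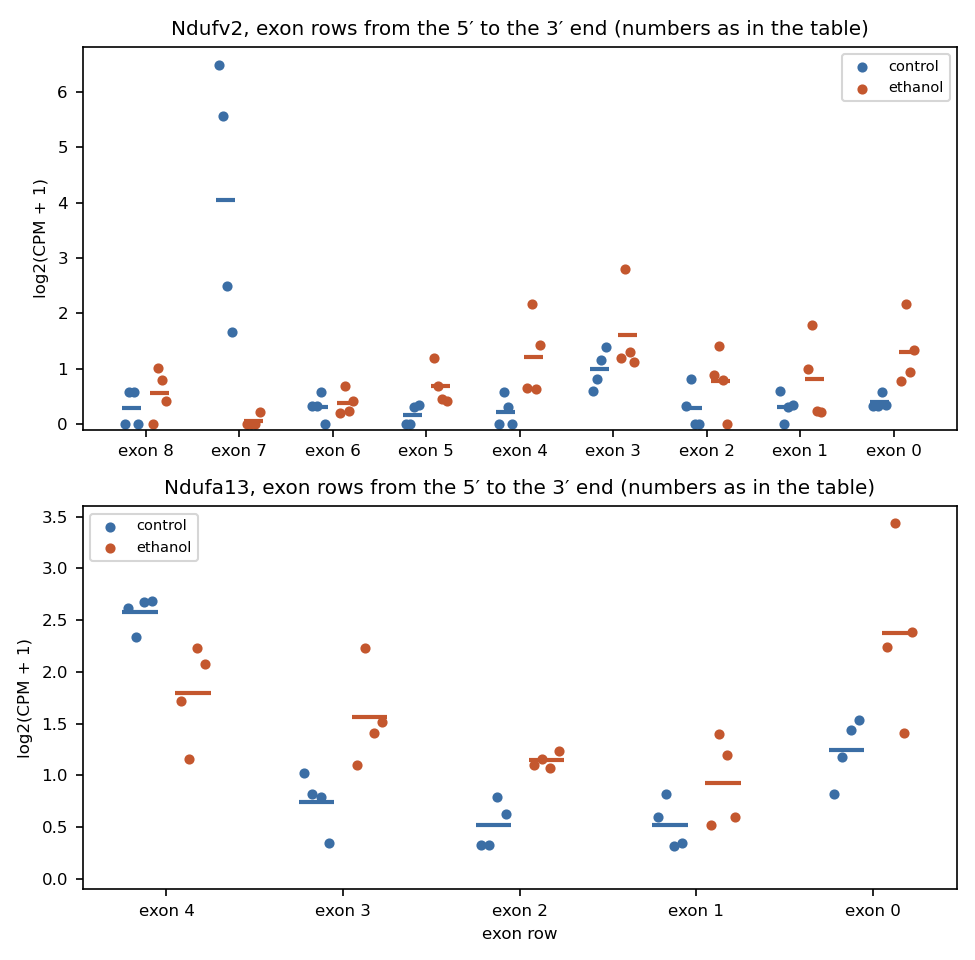
Level of each exon row of Ndufv2 (top) and Ndufa13 (bottom) as log2(CPM + 1), from the 5′ to the 3′ end, with a point per library and a bar at the group mean (control blue, ethanol orange). Exon 7 of Ndufv2 and exon 4 of Ndufa13 are the rows where controls lie higher, and in the other rows the ethanol mean is the higher.

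Of the 10 accessory subunits of the distal membrane arm 6 were tested and 4 rose. Ndufb9, another LYR-motif protein, was at 3.58, 3.03, 3.66 and 3.54 CPM in controls and at 8.62, 34.6, 6.63 and 9.47 CPM in ethanol libraries. The controls lay within a narrow band and all ethanol libraries above it (2.09 ± 0.51, edgeR adjusted p = 0.0287; 1.19 without ethanol replicate 2, edgeR adjusted p = 0.0203). Ndufb11, a second X-linked subunit, was at 1.79, 4.80, 1.71 and 3.26 CPM in controls and at 9.19, 32.5, 3.68 and 9.98 CPM in ethanol libraries (2.24 ± 0.59, edgeR adjusted p = 0.0313). Ndufb8, often used as a protein marker of assembled complex I, was at 1.02, 1.01, 2.69 and 3.54 CPM in controls and at 5.46, 18.3, 3.32 and 7.95 CPM in ethanol libraries (2.07 ± 0.56, edgeR adjusted p = 0.0328). In both genes ethanol replicate 3 lay below the highest control and the other ethanol libraries above it. Ndufb6 rose as well (2.08 ± 0.62, edgeR adjusted p = 0.0411), but not without ethanol replicate 2 (1.42, edgeR adjusted p = 0.106). Ndufb10 (1.53 ± 0.50) and Ndufb5 (1.62 ± 0.54) did not pass, with edgeR adjusted p of 0.0527 and 0.0580. The untested Ndufb2, Ndufb3, Ndufb4 and Ndufb7 had ratios of means of 3.83, 4.54, 6.03 and 5.26.

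Ndufab1, the mitochondrial acyl carrier protein that also serves fatty acid and lipoic acid synthesis, was not tested. It was at 0.51, 1.52, 0.24 and 1.36 CPM in controls and at 3.02, 14.6, 2.21 and 6.26 CPM in ethanol libraries, without overlap.

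Assembly factors help to build the complex but are not part of it. Of 7 with an Nduf symbol 2 were tested and 0 passed with edgeR, DESeq2 or limma-voom, and 1 of them had an unadjusted p under 0.05 with each. Ndufaf3, which acts on the Q module, was at 2.30, 2.28, 1.95 and 2.99 CPM in controls and at 3.73, 6.17, 5.53 and 4.23 CPM in ethanol libraries. All ethanol libraries were above all controls, but the gene did not pass (1.03 ± 0.36, edgeR adjusted p = 0.0674). Ndufaf1, which acts on the membrane arm, was at 4.35, 3.29, 2.93 and 2.99 CPM in controls and at 3.73, 3.91, 5.34 and 2.71 CPM in ethanol libraries, with the groups mixed (0.21 ± 0.36, edgeR adjusted p = 0.717). The untested Ndufaf7, named after its values were seen, was at 0.51, 0.76, 1.22 and 0.82 CPM in controls and at 1.72, 5.76, 2.03 and 1.52 CPM in ethanol libraries, without overlap. The median ratio of means over the 7 was 1.99. From a list of other complex I assembly factors without an Nduf symbol 11 were in the table, 3 were tested and 0 passed (median log2 fold change 0.34; Foxred1 0.34 ± 0.42, Tmem186 0.32 ± 0.37, with 1 of the 3 at an unadjusted p under 0.05). Whether subunits and assembly factors differ was not tested.

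Ndufa4, which shares the name but is now counted as a subunit of cytochrome c oxidase, was at 2.05, 4.55, 1.95 and 1.63 CPM in controls and at 9.05, 23.4, 7.37 and 10.3 CPM in ethanol libraries. The groups did not overlap, also without ethanol replicate 2 (2.28 ± 0.47, edgeR adjusted p = 0.0287; 1.74 without that library, edgeR adjusted p = 0.00569). Ndufa4l2, its hypoxia-induced paralogue, stayed between 0.00 and 1.11 CPM in all libraries and was not tested. Its ratio of means was 2.30, on few counts.

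The counts were also read row by row. Of the 248 exon rows 119 to 148 had a count in a control library and 189 to 224 in an ethanol library. The ethanol mean was the higher in 229 rows and the lower in 19. The same count was not made over all exon rows. Rows of Ndufv2 and Ndufa13 described above are among the lower ones. These counts are a description, since rows of a gene share its libraries. In 16 of the 45 genes, and in 8 of the 17 that rose, an exon overlaps another annotated gene in GENCODE M21, so part of their counts may belong to that gene.

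Introns of the same genes gave a readout that the choice of exon rows did not use. Fragments assigned to introns of 44 of the genes summed to 31.9 ± 4.04 CPM in control and 30.1 ± 4.76 CPM in ethanol libraries (SD, n = 4 each), a difference smaller than either spread. Of 3 tested, 0 passed (edgeR; 0 at an unadjusted p under 0.05, 0 by DESeq2 and limma-voom), beside 0.252% of all introns higher and 1.88% lower. Their log2 fold changes were 0.07 for Ndufa13, 0.02 for Ndufs4 and -0.35 for Ndufaf2. Per intron count there were 2.06 to 3.69 exon counts in controls and 4.61 to 30.2 in ethanol libraries, with the Ndufv2 row left out.

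The mitochondrially encoded part of the complex showed no such difference. Transcripts of the 7 ND genes, which form the proton-pumping core of the membrane arm, summed to 717, 460, 1609 and 1436 CPM in controls and to 801, 724, 755 and 888 CPM in ethanol libraries. Controls spread widely and enclosed all ethanol libraries. None of the 7 passed (edgeR; 0 at an unadjusted p under 0.05, 0 by DESeq2 and limma-voom). Their median log2 fold change was -0.40, with ND5 at -0.56 ± 0.47 and ND4 at -0.36 ± 0.46. For each count on nuclear Nduf exons, again without the Ndufv2 row, there were 5.58 to 18.2 mitochondrial ND counts in controls and 1.04 to 4.99 in ethanol libraries. This ratio was not tested.

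**Figure D4:**
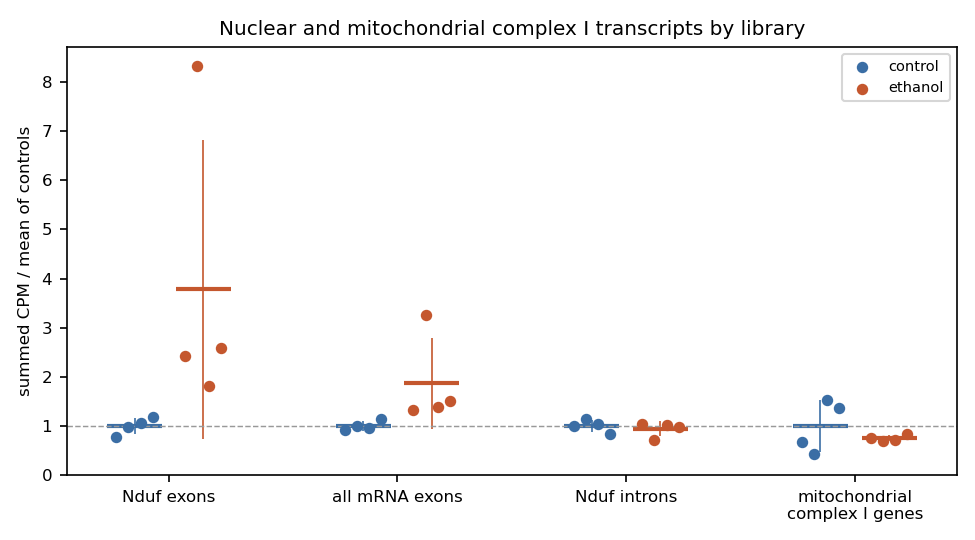
Summed CPM divided by the control mean (vertical axis) for Nduf exons without the Ndufv2 row, all mRNA exons, Nduf introns and the 7 mitochondrial ND genes, with a point per library, thick bars at group means and thin bars for SD (n = 4 each). Ethanol libraries lie above all controls for Nduf exons and for all mRNA exons, with ratios of means of 3.78 and 1.87, and the groups overlap for introns and ND genes.

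Most tested nuclear genes of the other respiratory complexes moved with those of complex I. All 4 complex II genes rose (median log2 fold change 1.77, among them Sdhc with 1.86 ± 0.41), and 7 of 9 of complex III (1.89, among them Uqcrq with 2.32 ± 0.54). Of complex IV 10 of 12 tested rose (1.94, among them Cox5b with 2.69 ± 0.56), and all 16 of the ATP synthase (2.21, among them Atp5d with 2.80 ± 0.54). Of the 41 genes tested in these lists 0 fell by edgeR. Beside this, 23.8% of mRNA exon features rose and 0.153% fell. Some of the 41, such as Uqcr10 (4, 6, 8 and 6 counts in controls), passed the count filter through the ethanol libraries. The share of tested genes that rose is thus no measure of these complexes either. Without ethanol replicate 2 the numbers that rose were 2, 5, 8 and 13, beside 14.0% of mRNA exon features. Without any 1 control 0 of these 41 genes passed, while 40 had an unadjusted p under 0.05, and limma-voom called 0 (39 at an unadjusted p under 0.05). The median of the nuclear complex I genes, 1.96, lay within the range of these medians.

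Markers of the cells that a sperm sample can hold were read in the same libraries. Of 20 spermatid and sperm markers 19 were tested and 0 passed with edgeR or limma-voom, while DESeq2 called 2 (2, 3 and 4 at an unadjusted p under 0.05 with edgeR, limma-voom and DESeq2). Their sum was 750 to 953 CPM in controls, 291 CPM in ethanol replicate 2 and 516 to 820 CPM in the other ethanol libraries. Of the 20 markers 19 had a lower mean in ethanol libraries. Smcp, a sperm mitochondrial capsule protein gene, did not pass (-0.93 ± 0.41, edgeR adjusted p = 0.125). Of the 23 epididymal epithelium markers 10 had no count in some library, and only 11 had enough counts to be tested. Of the 11 tested 10 rose, beside 23.8% of mRNA exon features. Among those that rose were Crisp1, secreted onto sperm in the epididymis (2.83 ± 0.71), and the epithelial genes Krt8 (2.45 ± 0.57) and Epcam (2.21 ± 0.56). Without ethanol replicate 2, 7 of 12 tested rose, beside 14.0% of mRNA exon features. DESeq2 called 6 of 11, while limma-voom called 0 (11 at an unadjusted p under 0.05), as did edgeR without any 1 control (11 or 12). In the whole table DESeq2 called 3144 features, limma-voom 8 and edgeR without a control 3 to 10. Other defining genes of that epithelium, such as Lcn5, Lcn8 and Lcn9, were near 0, with group means of 0.12 to 1.36 CPM. Of 10 tested markers of smooth muscle and stroma 0 passed with edgeR or limma-voom and 1 with DESeq2 (1, 3 and 2 at an unadjusted p under 0.05). The list summed to 67.5 to 175 CPM in controls and 34.3 to 95.2 CPM in ethanol libraries. Among 7 tested blood and immune markers Cd52, which the epididymis also makes, rose (3.67 ± 0.79) and the globin genes Hba-a1 and Hba-a2 fell (-2.02 ± 0.49 and -2.01 ± 0.51). Of this list DESeq2 called 4, while limma-voom called 0 (5 at an unadjusted p under 0.05), as did edgeR without any 1 control (5 or 6). That list summed to 97.1 to 133 CPM in controls. It summed to 2658 CPM in ethanol replicate 2 and 183 to 412 CPM in the other ethanol libraries, most of it Cd52. The white blood cell gene Ptprc was at 0.37 to 1.90 CPM. Epididymal markers were highest in ethanol replicate 2, as were the Nduf genes, and their part in the result was not tested.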

How the data were processed

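Sperm small RNA of 8 mouse libraries, 4 control and 4 ethanol by their titles, was compared. The values are raw counts in a single table, with a row per feature and a column per library, as deposited by the authors. Its headers record no normalization. The aligner, the counting rule, strand use, the handling of molecular identifiers and the genome build are not given in the sources used here. The table had 1078961 rows. Rows that share a name and a feature type were added up, which gave 45097 features. Joint names of 278 exon rows that stand for several genes were kept. Leaving aside rows with very few counts, 2 Nduf rows of overlapping isoforms, both of Ndufa5, carried the same counts as each other. Some rows with very few counts did so too, such as those of Ndufs8. All such rows were added up, so the same fragments may be counted more than once in a gene. In genes on the minus strand exon numbers rise towards the 5′ end, as checked against GENCODE M21.

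The test of the counts was that of edgeR 4.0.16 (R 4.3.3, scaling by TMM, filterByExpr with a minimum count of 10, robust quasi-likelihood fit, Benjamini-Hochberg adjustment over all features tested, threshold 0.05). The fit was tested on simulated data. CPM used TMM factors. A log2 fold change is of ethanol against control, and its standard error is its size divided by the square root of F. Alternatives were scaling by relative log expression (RLE) in edgeR, the DESeq2 1.42.0 Wald test, limma-voom (limma 3.58.1), scaling by totals, and a stricter and no count filter. Others were a block for the replicate number, leaving out each library, each gene's largest exon row, and mRNA exons alone. Pairs of ethanol libraries were also left out, replicates 1 and 2 or 3 and 4, whose column names begin alike within a pair. What these names stand for is not stated. The largest transcript of each gene and the separation of 2 exon rows were added after seeing the data. Summaries were made in Python 3.11.15 (pandas 2.3.3, numpy 2.4.6, scipy 1.17.1) and plots with matplotlib 3.10.9.

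The genes and lists were chosen with earlier results of these data known. Genes named with values were core subunits, the 12 with the smallest p, the 2 with the highest mean CPM in each role, and the tested genes with the 2 largest and the 2 smallest log2 fold changes. In other lists they were up to 4 past the threshold or otherwise the 2 most abundant. The values of 1 gene of the family are not reported here, though it is in the counts and sums. Other Nduf genes are given to account for every gene of the family.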

Additional observations from a re-analysis of the deposited data

Results flagged for a closer look

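Dixon's test of the highest or lowest library in a group of 4 (95% critical value) was applied to 52 groups of values, and 12 stood out, where chance alone gives about 1 in 20. In 11 of the 12 the library was ethanol replicate 2, higher than the others of its group. Its values were 36.0 CPM for Ndufa1 (next highest ethanol library 7.76), 24.9 for Ndufa2 (6.09), 21.2 for Ndufa6 (7.27), 25.9 for Ndufa7 (7.18) and 34.6 for Ndufb9 (9.47). They were 30.03 CPM for Ndufc2 (8.47), 11.3 for Ndufs1 (4.05), 26.3 for Ndufs3 (7.76), 14.2 for Ndufs8 (3.04) and 19.3 for Ndufv2 (5.89). The sum over all 45 genes was 696 CPM in that library, beside 216 in the next. The remaining value was a control: Ndufa4 was at 4.55 CPM in control replicate 2, beside 2.05 CPM in the next highest control. Since the genes were read from the same libraries, these are not independent. The share of mRNA exon counts and the epididymal markers were also highest in ethanol replicate 2, and their part in these values was not tested.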

How the results depend on the processing

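The 17 of 26 tested genes that rose in the fit of all libraries became 11 of 26 with RLE scaling. Without a count filter 33 of 45 rose and 1 fell. The numbers were 5 of 27 without ethanol replicates 1 and 2, and 33 of 38 without ethanol replicates 3 and 4. In the same order 1841, 1200, 3451, 816 and 3320 features of the whole table passed, in either direction. The 17 became 0 with limma-voom (26 tested) and with a minimum count of 30 (2 tested). The number was also 0 with the largest exon row of each gene (3 tested) and with mRNA exons alone (35 tested). In these fits 8, 782, 2 and 0 of all features fitted passed. When 1 library at a time was left out the count ran from 0 of 39, without any 1 control, to 32 of 37, without ethanol replicate 3. Of all features 3 to 10 passed without a control and 3575 without ethanol replicate 3. The median log2 fold change, 1.96, ran from 1.19 to 2.20 when 1 library was left out, and was 1.17 without ethanol replicates 1 and 2, 0.41 with the largest exon rows, 0.99 with mRNA exons alone and -0.60 with a minimum count of 30. Of the genes of the other pathway lists 37 were called, but 0 with limma-voom, 8 with a minimum count of 30, 20 without ethanol replicates 1 and 2, and 0 to 42 when 1 library was left out. Scaling by library totals moved the median over all features from -0.01 to 0.24. There 17 of 26 tested Nduf genes rose too, and 1703 features of the whole table passed. The difference in the share of mRNA exon counts, 0.0519 percentage points, was 0.0212 to 0.0764 when 1 library was left out, and -0.0243 with the largest exon rows, which for Ndufv2 is the row that was high in controls.

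Signs turned for Ndufa13 (-0.70 with its largest exon row, -0.33 with mRNA exons alone), Ndufaf1 (-0.091, without ethanol replicate 3, to 0.30 when 1 library was left out, and -0.57 with mRNA exons alone), Ndufs1 (-0.29 with mRNA exons alone) and Ndufv2 (1.73 without its largest row). They also turned for Tmem186 (-0.43 with mRNA exons alone) and Foxred1 (-0.23, without ethanol replicate 2, to 0.47 when 1 library was left out, -0.28 without ethanol replicates 1 and 2, -0.58 with mRNA exons alone). Except where the construction of the alternative shows it, the cause was not tested. Same-numbered libraries deviated together by correlations of 0.36, 0.21, -0.14 and -0.02, so the replicate numbers do not pair them, and only replicate 2 correlated best with its own number. With the replicate number as a block 21 genes rose and 1 fell, Ndufv2 (-1.41, edgeR adjusted p = 0.0308), with a median of 1.69. In that fit 26 of the genes were tested and 3298 features of the whole table passed. Most Nduf genes had under 10 counts in a control library, which limits each single value.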

Other observations

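Per kb of transcript, the 45 genes had a median level of 2.06 CPM per kb in control and 8.90 CPM per kb in ethanol libraries. The transcripts were 315 to 3632 bases long. The highest ethanol level per kb was that of Ndufa1 (29.7 CPM per kb) and the lowest that of the assembly factor gene Ndufaf6 (0.19 CPM per kb), each chosen after its value was seen. Across the 45 genes transcript length and the ratio of ethanol to control means had a Spearman rho of -0.26, given as a description, since all genes share the same 8 libraries.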
